A study of Mus musculus with 9 samples.

Results

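Vomeronasal type 2 receptors (V2Rs) were examined in bulk RNA-seq libraries of the main olfactory epithelium (MOE), the odor-sensing tissue of the nose. The members were every gene row named Vmn2r followed by a number that had at least 1 read over the 9 libraries, which gave 118 of 122 such rows and of 24421 gene rows in all. The 4 rows without a read were Vmn2r46, Vmn2r47, Vmn2r109 and Vmn2r122. Another 5 rows, for pseudogenes, were left out by the rule.

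Each library was made from the whole MOE of 1 mouse. The labels give C57BL/6 as the strain and postnatal day 14 as the age, and the 9 mice were 3 wild type (WT), 3 heterozygous (het) and 3 homozygous (homo) mice for a deletion of TAAR enhancer 1. This noncoding element lies in the gene cluster of the trace amine-associated receptors (TAARs), a small family of olfactory receptors. The deletion was made by CRISPR genome editing and is carried in the germ line, the mice were littermates, and WT mice carried no deletion. The study's methods say that embryos of C57BL/6J mice were edited, while its reporting summary gives mixed backgrounds for its mouse lines and an older age for knockout mice of this enhancer, so the age given here rests on the labels. Reads counted in genes numbered 24583906 to 32631951 per library, and levels are given as counts per library scaled to a common library size (CPM). On that scale 3 reads, the upper limit that a count of 0 allows, equal 0.0919 to 0.122 CPM. The reads carry no molecular identifiers, so intervals cover counting error only. Reads of Taar2 to Taar5, TAAR genes of this cluster, summed to 227, 337 and 238 in WT, 176, 173 and 158 in het and 3, 1 and 1 in homo libraries, which matches the labelled genotypes. No pair of same-genotype libraries agreed within sampling noise (chi-square per degree of freedom at least 4.34), so each was counted as its own replicate.

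V2Rs are G protein-coupled receptors with a long extracellular domain that binds peptide and protein cues. They are the receptors of sensory neurons in the basal layer of the vomeronasal organ, a sense organ separate from the MOE that detects social and predator signals. A basal neuron typically expresses a single V2R of families A, B or D together with a broadly expressed receptor of family C, and it signals through the G protein subunit encoded by Gnao1 and the ion channel Trpc2. Neurons of the apical layer express vomeronasal type 1 receptors (V1Rs, Vmn1r genes) instead.

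The DNA before an upstream annotated start of the most abundant member, Vmn2r29, differed from that before the starts of the other members. RefSeq (GRCm38.p6) gave a 300-base window around the start for 113 of the 118 members, and the 250 bases before the start were searched for the dinucleotide CG, which reads the same on both strands. Vmn2r29 was the only member with more than 1 start in this table. Its upstream start had 17 CG dinucleotides and 60.8% G and C, whereas the other 112 members had 0 to 4 CG dinucleotides (median 1) and 26.8 to 44.4% G and C (median 38.4%). Among all 27025 genes with a window, 23.6% had at least as many CG dinucleotides as the upstream start of Vmn2r29. The downstream start of Vmn2r29, 30961 bases away on the same strand, had 0 CG dinucleotides and 39.2% G and C, within the range of the other members. GENCODE M21, another annotation, gives the upstream start to a separate gene, Gm45844. The sequences below show the contrast between this upstream start, a pair of members read in every library (Vmn2r65 and Vmn2r1) and members read almost only in libraries het 1, homo 2 and homo 3. They run 5′ to 3′ on the gene's strand and end just before the annotated transcribed part or, for Vmn2r29, before its upstream start, with CG in capitals. The positions are chr7:7278290-7278539 (minus) for Vmn2r29, chr7:84964116-84964259 (minus) for Vmn2r65, chr3:64081392-64081546 (plus) for Vmn2r1, chr7:9992258-9992389 (minus) for Vmn2r49, chr7:8489076-8489209 (minus) for Vmn2r45, chr14:51451712-51451856 (plus) for Vmn2r89 and chrX:124135953-124136160 (minus) for Vmn2r121. Vmn2r45 and Vmn2r121 were chosen for display after their values were seen.
Vmn2r29 upstream start: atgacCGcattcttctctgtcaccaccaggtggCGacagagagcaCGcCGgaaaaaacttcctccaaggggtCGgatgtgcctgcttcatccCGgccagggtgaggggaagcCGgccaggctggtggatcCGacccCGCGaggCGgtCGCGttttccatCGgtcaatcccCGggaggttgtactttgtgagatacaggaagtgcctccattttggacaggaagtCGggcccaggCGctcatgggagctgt
Vmn2r65: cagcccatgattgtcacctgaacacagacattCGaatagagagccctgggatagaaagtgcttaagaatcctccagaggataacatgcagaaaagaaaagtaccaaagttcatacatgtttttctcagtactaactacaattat
Vmn2r1: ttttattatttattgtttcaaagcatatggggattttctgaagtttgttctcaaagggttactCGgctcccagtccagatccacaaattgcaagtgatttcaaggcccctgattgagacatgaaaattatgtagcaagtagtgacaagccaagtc
Vmn2r49: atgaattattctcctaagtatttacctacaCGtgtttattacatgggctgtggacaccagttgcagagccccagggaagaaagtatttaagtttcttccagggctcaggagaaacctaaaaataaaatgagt
Vmn2r45: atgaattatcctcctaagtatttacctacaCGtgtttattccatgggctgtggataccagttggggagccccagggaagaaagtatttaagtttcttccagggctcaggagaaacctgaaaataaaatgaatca
Vmn2r89: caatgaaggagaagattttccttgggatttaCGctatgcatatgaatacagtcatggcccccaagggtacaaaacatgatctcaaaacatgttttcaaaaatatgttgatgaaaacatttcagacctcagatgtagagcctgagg
Vmn2r121: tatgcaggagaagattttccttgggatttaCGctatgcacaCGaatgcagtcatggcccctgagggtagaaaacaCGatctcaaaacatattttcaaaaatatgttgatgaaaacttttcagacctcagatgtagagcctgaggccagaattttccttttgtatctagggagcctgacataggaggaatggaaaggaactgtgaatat
Vmn2r49 and Vmn2r45 had the same base at 125 of 132 positions (94.7%) when set side by side from the first base without gaps. An 8-base motif bound by early B cell factor proteins, CCCNNGGG, was also searched on both strands of the 300-base windows, where a match is a description of letters only. It was found in 22 of 113 members (19.5%), in 13.4% of all 27025 genes, in 0.488% of 205 Vmn1r genes and in 3.09% of 940 odorant receptor (Olfr) genes. Most of these members lie in a cluster of closely similar genes on chromosome 7, among them Vmn2r49 and Vmn2r45. Their matches are the same CCCCAGGG and are not independent, so the share is not one of the family at large. The core TATAAA was found in 23.0% of members, 14.2% of all genes, 42.4% of Vmn1r genes and 41.3% of Olfr genes.

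V2R reads were unevenly spread over the libraries. Summed over the 118 members, they amounted to 278, 410 and 349 reads in WT, 1284, 361 and 386 in het and 416, 1918 and 1203 in homo libraries. On the CPM scale the sums were 11.1, 12.6 and 13.6 in WT, 45.3, 13.6 and 13.0 in het and 14.7, 78.0 and 46.7 in homo libraries. Het 1, homo 2 and homo 3 thus stood apart from the other 6 libraries, which lay between 11.1 and 14.7 CPM and included at least 1 mouse of every genotype. They held 66.7% of all 6605 V2R reads and 31.9% of all reads counted in genes. The spread between mice was therefore wide among het and among homo mice and narrower among WT mice. Means were 12.4 ± 1.22 CPM in WT, 24.0 ± 18.5 CPM in het and 46.5 ± 31.7 CPM in homo mice (SD, n = 3 each). In bulk tissue, fewer cells of a type and less RNA per cell cannot be told apart.

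**Figure D1:**
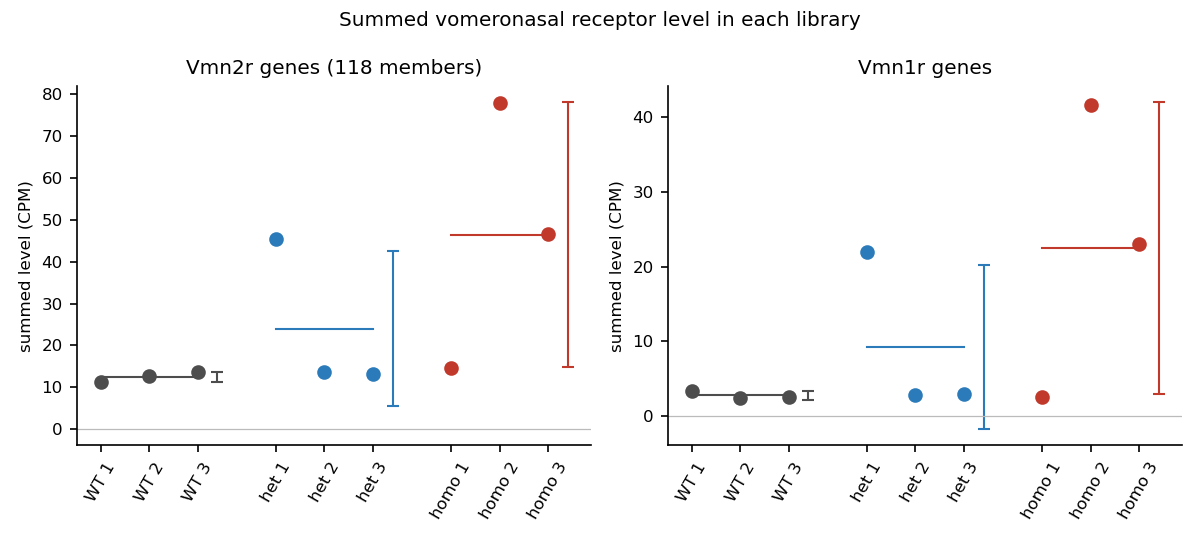
Summed level in CPM of the 118 Vmn2r genes (left) and of the Vmn1r genes (right) in each library, with 1 point per mouse, a line at the genotype mean and a bar of 1 SD (n = 3). Het 1 (45.3 CPM), homo 2 (78.0 CPM) and homo 3 (46.7 CPM) lie above the other 6 libraries for Vmn2r genes, which reach at most 14.7 CPM, and the same 3 libraries are highest for Vmn1r genes.

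V1R genes, which belong to the other layer of the vomeronasal organ, were high in the same libraries. Their sums were 3.41, 2.39 and 2.49 CPM in WT, 21.9, 2.87 and 2.94 CPM in het and 2.61, 41.7 and 23.0 CPM in homo libraries. Each V1R read was matched by 2.07 V2R reads in het 1, 1.87 in homo 2 and 2.03 in homo 3, and by 3.27 to 5.62 V2R reads in each of the other libraries. Without Vmn2r29, the member with most reads, the ratio was 1.92 in het 1, 1.74 in homo 2 and 1.85 in homo 3, and 2.26 (WT 1) to 4.26 (homo 1) in the others, so the gap was narrower. Summed Olfr genes, the receptors of MOE neurons, lay between 2938 CPM (het 1) and 3283 CPM (homo 1), and homo 2 and homo 3 were within the range of the other libraries.

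More members were also detected in these libraries. At least 1 read was found for 35, 41 and 38 members in WT, 108, 47 and 36 in het and 40, 115 and 108 in homo libraries. At least 10 reads were found for 6, 10 and 9 members in WT, 46, 10 and 11 in het and 13, 67 and 42 in homo libraries. The level in het 1 lay above all WT libraries for 97 of 118 members, where 25.5% of the 20213 genes tested lay above all WT libraries. In homo 2 it was 110 members (29.9% of genes tested) and in homo 3 it was 99 members (28.5%). In het 2, het 3 and homo 1 it was 20 (25.8% of genes tested), 12 (25.7%) and 20 members (27.5%), which is at or below the share over all genes. No read was found in any WT library for 72 members, and 50 members, with 1009 reads in all, had reads only in het 1, homo 2 and homo 3. Of these 50, 37 had reads in each of the 3 libraries. A read in 1 of these libraries placed such a member above all WT libraries there. The counts above for het 1, homo 2 and homo 3 were therefore partly fixed by the choice of members and are a description.

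**Figure D2:**
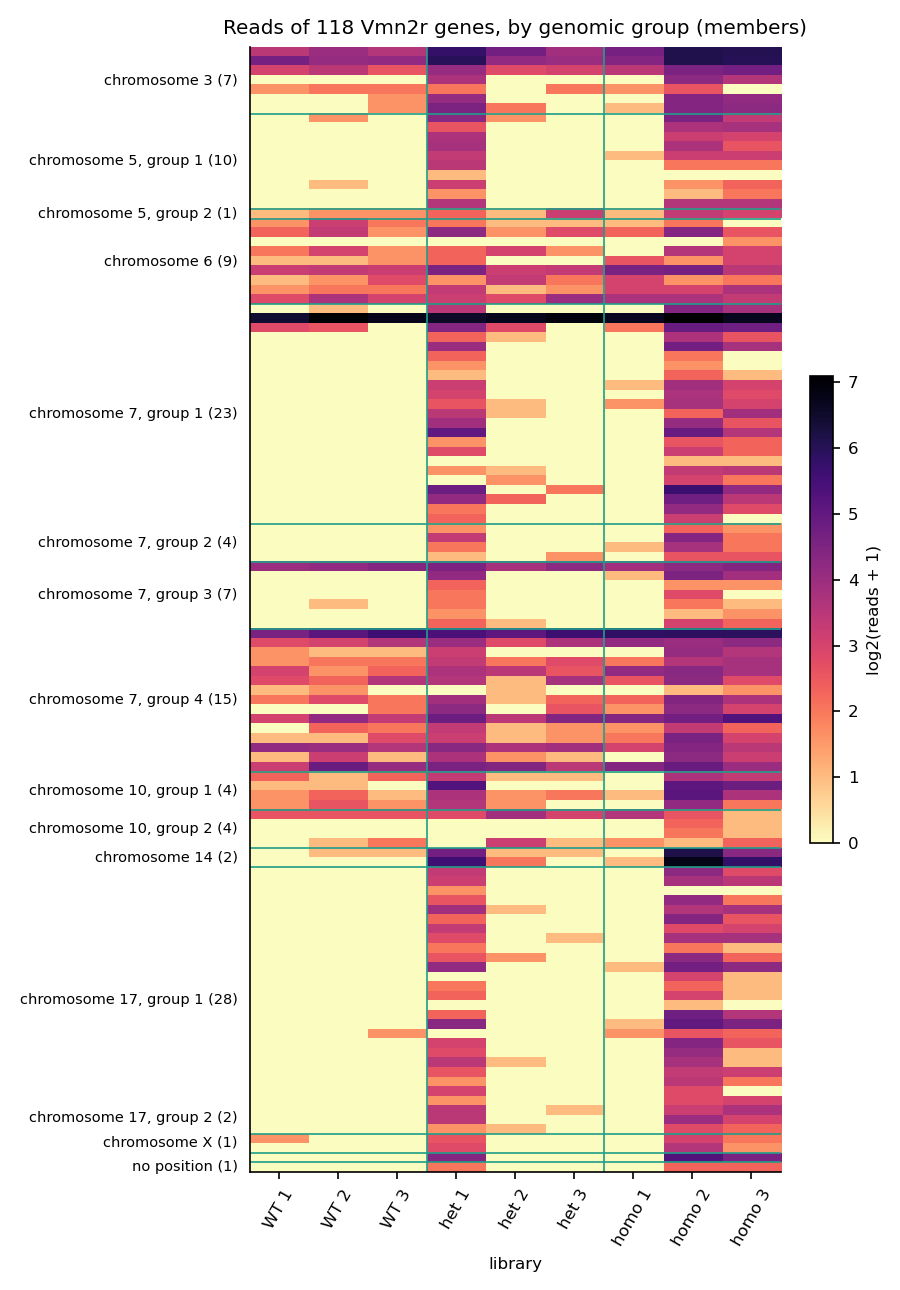
Reads of each of the 118 members (rows, grouped by position along the chromosomes, with the number of members in parentheses) in the 9 libraries (columns), as log2(reads + 1). Rows of chromosome 5 group 1, chromosome 14 and chromosome 17 are close to 0 outside het 1, homo 2 and homo 3, and the dark row in chromosome 7 group 1 is Vmn2r29, with 86 to 136 reads in every library.

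A small number of members accounted for the V2R reads of the other libraries. Reads in all 9 libraries were found for 23 members, which held 89.0% of the V2R reads of the WT libraries. Of these 23, 10 lie in chromosome 7 group 4, 5 on chromosome 6 and 3 on chromosome 3. The 15 members with most reads took 74.6 to 76.3% of V2R reads in the WT libraries, 41.3% in het 1, 38.6% in homo 2 and 45.4% in homo 3.

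Vmn2r29 had the most reads of any member and the most even level. It had 86, 136 and 106 reads in WT, 93, 105 and 119 in het and 101, 131 and 102 in homo libraries. All 3 genotypes overlapped, and the highest level was 1.62 times the lowest. Mean levels were 3.91 ± 0.403 CPM in WT, 3.76 ± 0.410 CPM in het and 4.28 ± 0.927 CPM in homo mice (SD, n = 3 each). Vmn2r29 took 30.9%, 33.2% and 30.4% of the V2R reads of the WT libraries, and 7.24% (95% Wilson interval 5.95 to 8.79%) in het 1, 6.83% (5.79 to 8.05%) in homo 2 and 8.48% (7.03 to 10.19%) in homo 3. Without it, the V2R sums were 7.69 to 9.44 CPM in WT libraries and 42.0, 72.7 and 42.7 CPM in het 1, homo 2 and homo 3. Its gene model differs between annotations. RefSeq places Vmn2r29 at 7212996 to 7278289 of chromosome 7 (minus strand), while GENCODE M21 places it at 7231327 to 7247328 and gives the upstream start to a separate gene, Gm45844, whose exons share 2228 bases with it on the same strand. The table has no row named Gm45844. Only 26.1% of the 100-base stretches of its transcripts are unique among GENCODE transcripts, and how many of its reads came from the receptor's own exons was not tested.

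Some other members were read in every library and not mainly in het 1, homo 2 and homo 3. Vmn2r57 (chromosome 7, 41395945 to 41448696) had 15, 17 and 20 reads in WT, 22, 13 and 18 in het and 14, 18 and 21 in homo libraries, and it too shares exon bases with other gene models (Gm20449 and Gm17102). Vmn2r77 had 17, 15 and 11 reads in WT, 19, 12 and 14 in het and 7, 20 and 10 in homo libraries. Vmn2r79 had 8, 28 and 16 reads in WT, 23, 21 and 10 in het and 20, 28 and 15 in homo libraries. For each of these 3 genes the genotypes overlapped, with the highest level 1.66 times the lowest for Vmn2r57, 3.29 times for Vmn2r77 and 3.55 times for Vmn2r79. The lowest edgeR adjusted p-value in the comparison of homo with WT mice was 0.841 (Vmn2r79). Altogether 16 members had less than 50% of their reads in het 1, homo 2 and homo 3, against a median of 96.8% over the 118 members.

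Vmn2r65, a receptor known for responses to odors of mouse pups, ranked next to Vmn2r29. It had 23, 34 and 48 reads in WT, 41, 33 and 49 in het and 56, 58 and 60 in homo libraries. The homo libraries were all above the WT libraries, and homo 1 was close to homo 2 and homo 3. Mean levels were 1.28 ± 0.513 CPM in WT and 2.22 ± 0.213 CPM in homo mice (SD, n = 3 each), with a log2 fold change of 0.80 (SE 0.25) and an edgeR adjusted p-value of 0.376. Its exons overlap no other gene model, and all of its 100-base stretches are unique. Its neighbor Vmn2r66 had 6, 7 and 11 reads in WT, 15, 6 and 12 in het and 17, 15 and 18 in homo libraries. Vmn2r74 of the same chromosomal group had 7, 17 and 9 reads in WT, 27, 10 and 21 in het and 20, 25 and 38 in homo libraries. Vmn2r24, on chromosome 6, had 8, 9 and 8 reads in WT, 22, 8 and 9 in het and 23, 24 and 10 in homo libraries. In Vmn2r66, Vmn2r74 and Vmn2r24 every homo library was above every WT library, and none was called (edgeR adjusted p from 0.343 for Vmn2r74 to 0.471 for Vmn2r66). Vmn2r24 shares 2061 exon bases with Vmn2r25 on the opposite strand, and the strand setting of the counting is not given in the sources used here.

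Family C comprises Vmn2r1 to Vmn2r7 on chromosome 3, the receptors that basal neurons express alongside another V2R, and all 7 were detected. Their summed level was 1.72, 1.35 and 1.55 CPM in WT, 6.53, 1.93 and 1.32 CPM in het and 2.01, 8.99 and 7.76 CPM in homo libraries. Het 1, homo 2 and homo 3 were again the highest, while the share of V2R reads that family C took ranged from 39 of 386 reads (het 3) to 16.6% (homo 3). In het 1 that share was 14.4% (95% Wilson interval 12.6 to 16.4%), and in homo 2 it was 11.5% (10.17 to 13.0%).

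Vmn2r1 had 10, 15 and 11 reads in WT, 54, 25 and 14 in het and 24, 68 and 66 in homo libraries. All homo libraries were above all WT libraries, and homo 1 was the lowest of the homo mice and below het 1 and het 2. Mean levels were 0.429 ± 0.0295 CPM in WT, 1.11 ± 0.731 CPM in het and 2.06 ± 1.05 CPM in homo mice (SD, n = 3 each). The log2 fold change of homo against WT mice was 2.23 with an SE of 0.50. Its edgeR adjusted p-value of 0.221 was the smallest of any member in this comparison. The call depended on the fit. The edgeR adjusted p-value was 0.0413 with only the 6 libraries compared and 0.0463 without homo 1. DESeq2 without independent filtering gave an adjusted p-value of 0.00840, and the other fits did not call Vmn2r1 in this comparison. Without het 1, homo 2 and homo 3, which have the highest V2R sums, the log2 fold change was 0.97, with homo 1 as the only homo mouse. The RefSeq span of Vmn2r1 also covers Vmn2r2.

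Vmn2r2 had 24, 16 and 17 reads in WT, 62, 17 and 15 in het and 20, 68 and 63 in homo libraries. Vmn2r3 had 7, 10 and 5 reads in WT, 16, 6 and 7 in het and 10, 22 and 25 in homo libraries. For Vmn2r2, homo 1 lay within the WT range, and for Vmn2r3 it was close to it. Vmn2r4, Vmn2r6 and Vmn2r7 were nearly absent outside het 1, homo 2 and homo 3. Vmn2r4 had 12, 18 and 11 reads in these libraries and 0 in the other 6, Vmn2r6 had 16, 20 and 17 reads there and at most 2 elsewhere, and Vmn2r7 had 22, 20 and 18 reads there and at most 3 elsewhere. Vmn2r5 did not share this pattern, with 2, 3 and 3 reads in WT, 3, 0 and 3 in het and 2, 5 and 0 in homo libraries. At least 68.8% of the 100-base stretches of each family C member are unique.

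Among the 15 members with most reads, 4 had over 90% of their reads in het 1, homo 2 and homo 3. Vmn2r89 (chromosome 14, 51451857 to 51464172) had 0 reads in each WT library, 47, 3 and 0 in het and 1, 109 and 55 in homo libraries. Its neighbor Vmn2r88, a receptor reported to respond to hemoglobin, had 0, 1 and 1 reads in WT, 25, 1 and 1 in het and 0, 71 and 19 in homo libraries. Together they took 5.61% of the V2R reads in het 1, 9.38% in homo 2 and 6.15% in homo 3, and at most 1.11% in each of the other libraries. Vmn2r81 (chromosome 10) had 1, 1 and 0 reads in WT, 37, 0 and 0 in het and 0, 33 and 27 in homo libraries. Vmn2r49 (chromosome 7) had 0 reads in each WT library, 27, 0 and 3 in het and 0, 50 and 17 in homo libraries. In all 4 genes homo 1 had at most 1 read, so the homo libraries overlapped or nearly met the WT libraries.

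Because every WT library had at most 3 reads of these genes, a fold change is given as a lower bound against 3 reads per library. The homo mean was at least 20.1-fold higher than that of WT mice for Vmn2r89, at least 11.03-fold for Vmn2r88, at least 8.19-fold for Vmn2r49 and at least 7.27-fold for Vmn2r81. The het mean was at least 5.39-fold higher than that of WT mice for Vmn2r89, at least 3.97-fold for Vmn2r81, at least 3.21-fold for Vmn2r49 and at least 2.90-fold for Vmn2r88. These means rest on het 1, homo 2 and homo 3, and none of the 4 genes was called (lowest edgeR adjusted p of homo against WT 0.332, Vmn2r89). Only 35.8% of the 100-base stretches of Vmn2r49 are unique, so its own value is uncertain. Vmn2r116, chosen after its values were seen because it is the receptor of the male tear peptide ESP1, had 10, 15 and 7 reads in het 1, homo 2 and homo 3 and 0 in the other 6 libraries.

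**Figure D3:**
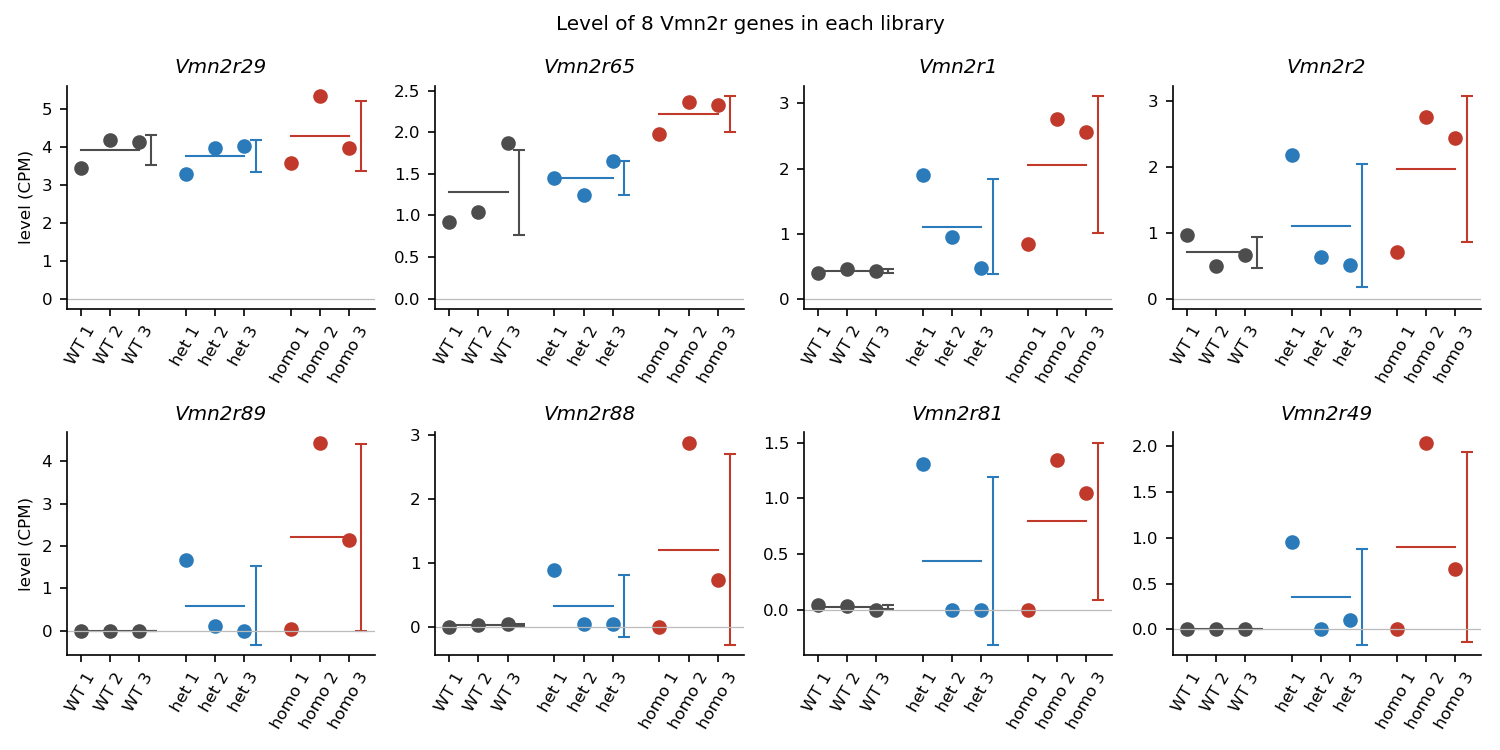
Level in CPM of 8 Vmn2r genes in each library, with 1 point per mouse, a line at the genotype mean and a bar of 1 SD (n = 3). Vmn2r29 lies at a similar level in all libraries, Vmn2r65 is highest in the 3 homo libraries, and the 4 genes of the lower row are close to 0 except in het 1, homo 2 and homo 3.

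Per length, the order of the members differed between libraries. In CPM per kilobase of coding sequence, the mean WT level was 1.53 for Vmn2r29, 0.503 for Vmn2r65, 0.259 for Vmn2r2 and 0.242 for Vmn2r57. In homo 2 the level on the same scale was 2.86 for Vmn2r89, 2.08 for Vmn2r29, 1.12 for Vmn2r88 and 1.02 for Vmn2r2. On this scale Vmn2r89 ranked first in that library, and it had no reads in WT mice. Its annotated coding length of 1549 bases is the shortest of the family, whose median is 2583 bases. Its exons, however, span 9020 bases in GENCODE M21, against 4812 for Vmn2r29, so this rank depends on the length used.

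V2R genes lie in clusters, and the clusters differed in how closely they followed het 1, homo 2 and homo 3. Members less than 2000000 bases apart were put in the same group, which gave 14 groups for the 117 members with a RefSeq position. The 28 members of chromosome 17 group 1 (17703941 to 23479597) had 173, 334 and 168 reads in het 1, homo 2 and homo 3 and 0 to 5 reads in each of the other libraries. The 10 members of chromosome 5 group 1 (108797193 to 109453387) had 90, 79 and 63 reads there and 0 to 3 elsewhere. Vmn2r121, the only member on the X chromosome, had 20, 38 and 23 reads there and 0 elsewhere. These groups were therefore close to undetected in 6 of the 9 libraries, among them all 3 WT libraries.

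Chromosome 7 group 1 (5480456 to 10176286) showed the same pattern once Vmn2r29 was set aside. Its other 22 members had 192, 313 and 163 reads in het 1, homo 2 and homo 3 and 0 to 16 reads in each of the other libraries. With Vmn2r29 included, the group had 285, 444 and 265 reads there and 92 to 142 reads elsewhere. Members of this group are the least unique of the family, with a median of 35.8% of 100-base stretches that occur in a single gene, against 95.3% over all members with a value.

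Other groups had reads in every library and stood less above that level. Chromosome 7 group 4 (84940169 to 87037968), with 15 members that include Vmn2r65 and Vmn2r74, had 226, 300 and 224 reads in het 1, homo 2 and homo 3 and 84 to 156 elsewhere, with the highest of the latter in homo 1. The 9 members of chromosome 6 (123308333 to 124231784) had 70, 81 and 55 reads there and 27 to 59 elsewhere. The 4 members of chromosome 10 group 2 had 6, 13 and 7 reads there and 5 to 22 elsewhere. The last group was thus not higher in het 1, homo 2 and homo 3 than in the other libraries. As a share of V2R reads, chromosome 17 group 1 took 13.5% (95% Wilson interval 11.7 to 15.5%) in het 1, 17.4% (15.8 to 19.2%) in homo 2 and 13.97% (12.1 to 16.0%) in homo 3, and at most 1.39% in each of the other libraries. Chromosome 7 group 4 took 17.6% in het 1, 15.6% in homo 2 and 18.6% in homo 3, and 28.3 to 37.5% elsewhere.

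**Figure D4:**
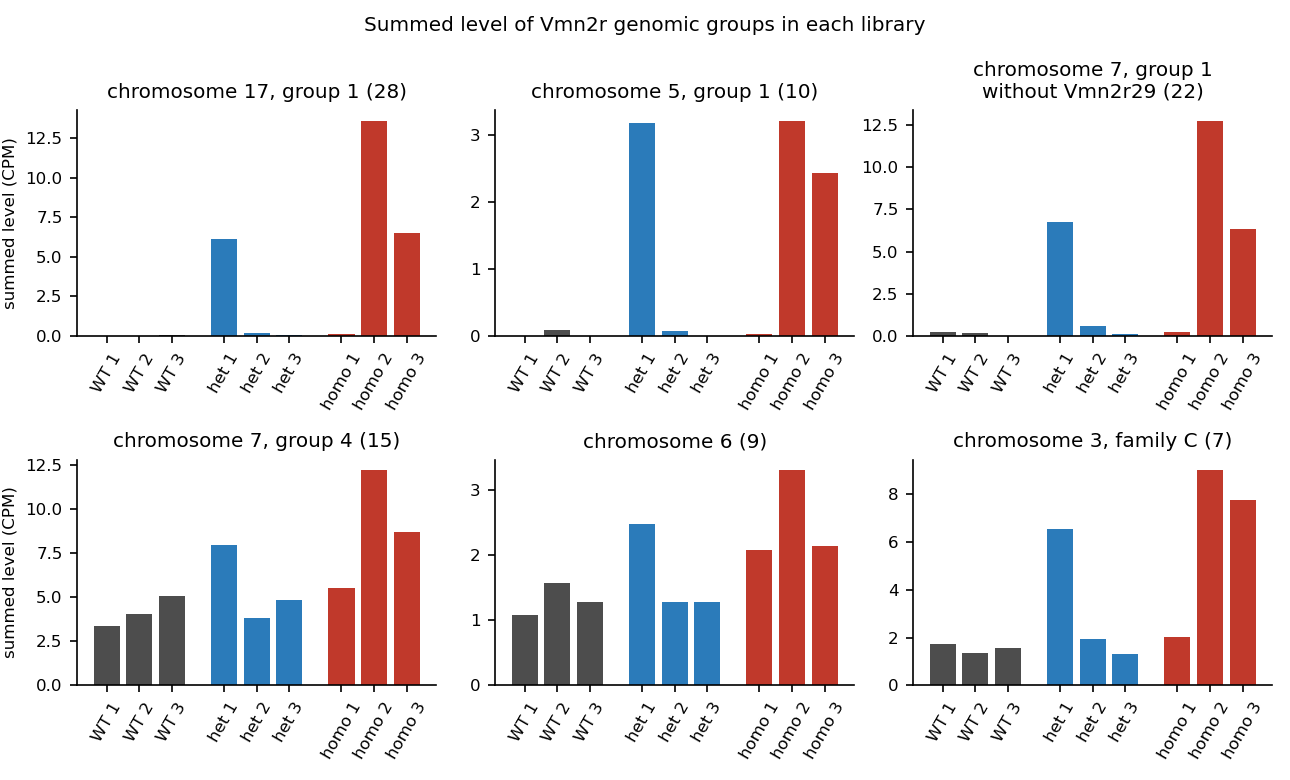
Summed level in CPM of 6 genomic groups of Vmn2r genes in each library, 1 bar per mouse, with the number of members in parentheses and a separate vertical scale in each panel. In the upper row the bars of het 1, homo 2 and homo 3 stand over bars near 0, and in the lower row every library has a visible bar.

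The study's question for these libraries was whether loss of TAAR enhancer 1 changes gene expression, and genotypes were compared over all genes. Of the 118 members, 98 had at least 10 reads over the 9 libraries and entered the test, and the other 20 were too rare. Between homo and WT mice, edgeR's quasi-likelihood test called 0 of the 98 members at an adjusted p-value under 0.05, where it called 0.0495% of the 20213 genes tested. At an unadjusted p-value under 0.05 there were 72 members, all higher in homo mice, where 9.26% of all genes passed and 4.55% passed with a higher level in homo mice. DESeq2 without independent filtering called 1 member (Vmn2r1) and gave 29 an unadjusted p-value under 0.05. Shares over all genes were not computed for DESeq2, so these 2 counts have no background to be read against. Of the 98 members, 65 had 10 reads only when het 1, homo 2 and homo 3 were counted, and because 2 of these are homo libraries and none is WT, their direction was largely fixed by entry to the test, so the counts over the 98 are a description. The fitted log2 fold change was above 0 for 95 of the 98 members, where 49.8% of all genes were above 0. The exceptions were Vmn2r5, Vmn2r77 and Vmn2r19, the last named after its values were seen. Every homo library was above every WT library for 17 members, where 7.34% of genes tested had this order, and for no member was every homo library below every WT library.

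The size of this difference depends on how absent genes are treated. The median fitted log2 fold change over the 98 members was 4.83, against -0.00057 over all genes. For 70 of the 98, however, 1 genotype had at most 3 reads in every library, and a fitted value is then set largely by the prior count. With these genes at their bound and 1 gene without a ratio, the median log2 ratio was 1.30. The ratio of the mean V2R sums was 3.74 between homo and WT mice, 2.47 without homo 2, and 1.18 without het 1, homo 2 and homo 3. Without these 3 libraries 33 members could be tested and 0 were called (0.0457% of the genes tested in that fit), and 2 (Vmn2r24 and Vmn2r69, the latter named after its values were seen) had an unadjusted edgeR p-value under 0.05, where 5.01% of genes tested did. In that fit homo 1 was the only homo mouse and was assumed to vary like the other groups.

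Between het and WT mice, edgeR called 0 of the 98 members, where it called 0.00495% of all genes. An unadjusted edgeR p-value under 0.05 was reached by 11 members, all higher in het mice. Over all genes 1.75% passed with a higher level in het mice. With DESeq2 it was 3 members, and the share over all genes was not computed for that fit. The log2 fold change was above 0 for 93 of the 98 members (51.5% of all genes), and the smallest p-value belonged to Vmn2r1 (1.36 on the log2 scale with an SE of 0.53, edgeR adjusted p = 1.000). As 65 of the 98 members entered the test only through het 1, homo 2 and homo 3, none of them WT, these counts are a description. The ratio of the mean sums was 1.93, and it was 1.07 without het 1. Without het 1 no member had an unadjusted edgeR p-value under 0.05 in this comparison, and without het 1, homo 2 and homo 3 none of 33 members did (3.27% of genes tested), with 0 called (0.00508%). Het 1 has the highest V2R sum of the het mice, so these changes were largely fixed in advance. The share over all genes was not computed for the fit without het 1. As a description, the difference between het and WT means rested mostly on het 1.

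Between homo and het mice, edgeR called 0 of the 98 members, where it called 0.114% of all genes. An unadjusted edgeR p-value under 0.05 was reached by 6 members, all higher in homo mice. Over all genes 4.22% passed with a higher level in homo mice. With DESeq2 without independent filtering it was 1 member, and the share over all genes was not computed for that fit. The ratio of the mean V2R sums was 1.94, and it was 3.48 without het 1 and 1.28 without homo 2. Het 1 and homo 2 have the highest V2R sums of their genotypes, so these shifts were largely fixed in advance. The log2 fold change was above 0 for 90 of the 98 members (49.5% of all genes). Of these 98, 65 entered the test only through het 1, homo 2 and homo 3, mostly homo libraries, so the counts are a description. Without het 1, homo 2 and homo 3 edgeR called 0 of 33 members (0.0305% of genes tested), and 2 had an unadjusted p-value under 0.05 (4.42% of genes tested), Vmn2r24 higher and Vmn2r22, named after its values were seen, lower in the homo mouse. The smallest p-value belonged to Vmn2r106, with 0, 0 and 2 reads in WT, 0 in each het and 2, 5 and 4 reads in homo libraries (edgeR adjusted p = 0.317). These counts are few, and against 3 reads per het library the homo mean was at least 1.34-fold higher than that of het mice. When all genotypes were tested together for any difference, edgeR called 0 members, where it called 0.0643% of all genes, and 45 had an unadjusted p-value under 0.05 (8.45% of all genes). DESeq2 called Vmn2r1 in that test (adjusted p = 0.0129). The 3 comparisons share libraries, so their values are not independent of each other.

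At the other end of the range, 2 members had exactly 1 read. Vmn2r14 had its read in het 1 and Vmn2r103 in homo 2. At this depth a level below 0.0919 to 0.122 CPM cannot be told from absence in a single library, and 38 members had reads in only 3 of the 9 libraries.

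Genes that mark basal vomeronasal neurons moved with V2R reads in part. Trpc2, the channel that defines vomeronasal neurons of both layers, had 0 reads in all 9 libraries. The row Xntrpc, whose exons share 2803 bases with those of Trpc2, also had 0 reads in every library, and how reads of the shared exons were assigned was not tested. Over the list of 13 basal neuron genes, all were detected and 12 were tested, of which 0 were called, 12 had a log2 fold change above 0 and 10 an unadjusted edgeR p-value under 0.05 between homo and WT mice. Over all genes these shares were 0.0495%, 49.8% and 9.26%. Tfap2e, H2-M1, H2-M10.1, H2-M10.4 and H2-M10.5 reached the 10 reads needed for the test only when het 1, homo 2 and homo 3 were counted. As these are mostly homo libraries and none is WT, the direction of these genes was largely fixed by entry to the test. The counts over the list are therefore a description. The summed level of the list was 537 to 558 CPM in WT, 552 to 561 CPM in het and 590 to 602 CPM in homo libraries, and most of it came from Gnao1 and Robo2, which other neurons express too.

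Of the 13 genes of the list, 8 were highest in het 1, homo 2 and homo 3, while Gnao1, Robo2, H2-M9, H2-M10.2 and H2-M11 were not. Calr4, a calreticulin of vomeronasal neurons, had 83, 93 and 59 reads in WT, 237, 76 and 72 in het and 111, 350 and 222 in homo libraries. Tfap2e, a transcription factor of basal neuron identity, had 0, 7 and 0 reads in WT, 20, 2 and 0 in het and 0, 28 and 21 in homo libraries. H2-M1, of the nonclassical class I genes that subsets of basal neurons co-express with V2Rs, had 1, 0 and 0 reads in WT, 18, 0 and 2 in het and 0, 12 and 11 in homo libraries. H2-M10.1 had 9, 19 and 6 reads in het 1, homo 2 and homo 3 and at most 1 elsewhere, and H2-M11 had 1 read in all. H2-M9 had 2, 2 and 0 reads in WT, 1, 3 and 1 in het and 7, 1 and 1 in homo libraries, with the highest level in homo 1. H2-M10.2 and H2-M10.3 were read in every library, with 16 to 50 and 27 to 63 reads, and H2-M10.2 was higher in het 2 (0.830 CPM) than in het 1 (0.812 CPM). Genes of this list other than Gnao1, Robo2, Calr4 and H2-M10.3 are named for their pattern after their values were seen. How far vomeronasal tissue in the samples accounts for the V2R values was not tested.

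**Figure D5:**
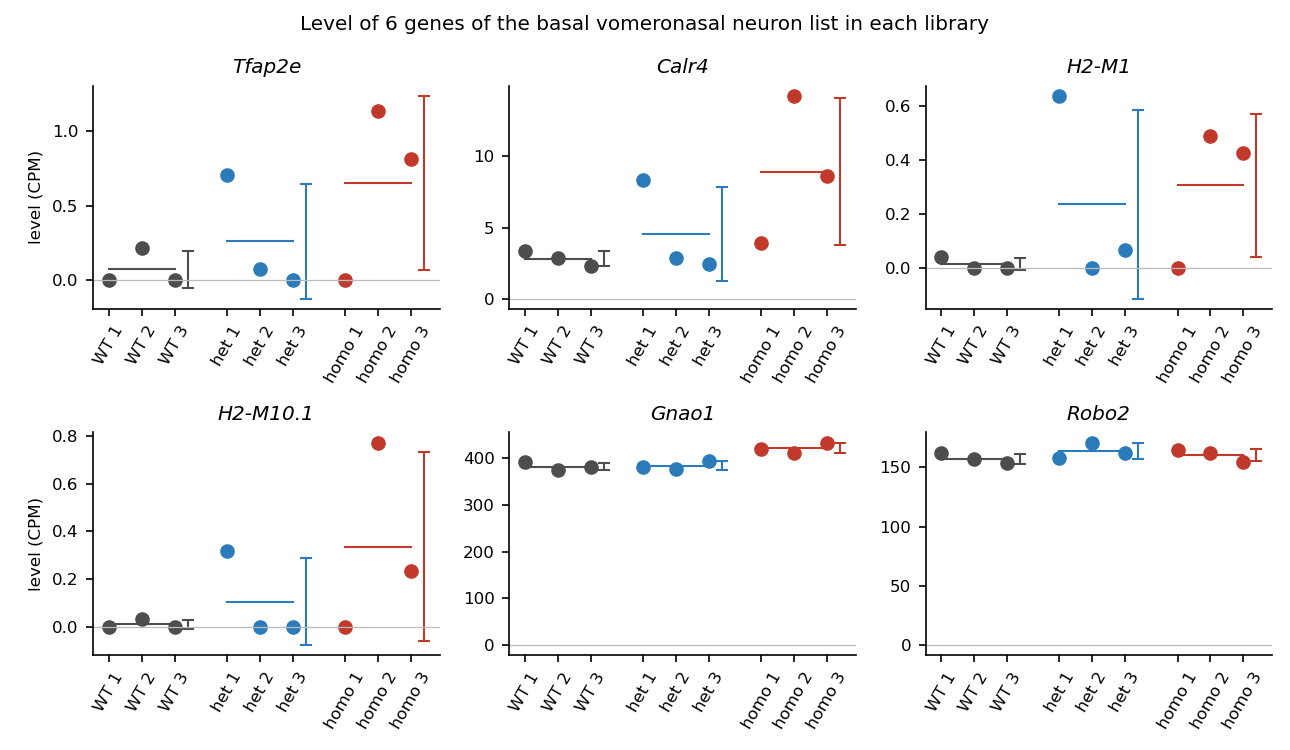
Level in CPM of 6 genes of the basal vomeronasal neuron list in each library, with 1 point per mouse, a line at the genotype mean and a bar of 1 SD (n = 3). Tfap2e, Calr4, H2-M1 and H2-M10.1 are highest in het 1, homo 2 and homo 3, and Robo2 is at similar levels in all libraries. Gnao1 is somewhat higher in every homo library (411 to 433 CPM) than in WT and het libraries (375 to 394 CPM).

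Among marker lists of other cell types, the apical vomeronasal neuron list had its highest sums in the same libraries, with 481 CPM in het 1, 459 CPM in homo 2 and 470 CPM in homo 3 against 429 to 458 CPM in the other 6. Homo 2 (459.0 CPM) was nearly level with WT 3 (458.5 CPM), so its place in this order is close to a tie. Of this list, 6 of 7 genes had a row and none of the 5 tested was called. Most of its sum came from Gnai2, Meis2 and Nrp2, which are abundant in every library, while Fpr-rs3, a formyl peptide receptor of the vomeronasal organ, had 7, 5 and 6 reads in het 1, homo 2 and homo 3 and 0 elsewhere. Fpr-rs6, of the same receptor family, did not share this order, with 0, 0 and 3 reads in WT, 0, 1 and 1 in het and 0, 5 and 0 in homo libraries. Both Fpr genes are named after their values were seen. None of 8 genes of MOE neurons, 5 of sustentacular cells, 5 of basal cells, 5 of motile cilia, 6 of nasal and vomeronasal glands, 6 of cartilage and 5 of bone was called between homo and WT mice (lowest edgeR adjusted p 0.105, for a gland gene). The unadjusted p-value was under 0.05 for 3, 0, 1, 2, 2, 4 and 1 genes of these lists in turn, where 9.26% of all genes passed. In summed level, none of these 7 lists placed het 1, homo 2 and homo 3 all above or all below the other libraries. Lcn3, a lipocalin of vomeronasal glands, had 13964 reads in het 1 and 3351 to 9428 in the other libraries, among them 4854 in homo 2 and 4468 in homo 3. The level of this gland gene was therefore high in het 1 and not in homo 2 or homo 3.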

How the data were processed

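RNA-seq of whole MOE was analysed from the deposited table of raw counts, with 1 column per mouse and 5 summary rows that entered neither library sizes nor tests. In each library 57.4 to 60.0% of the reads in the table were counted in genes and 16.9 to 19.4% mapped to several places. The submitters' processing notes list Trimmomatic 0.36, HISAT2 2.1.0, HTSeq 0.6.1p1 and DESeq2 1.20.0, the study's methods name featureCounts instead as the counter, and the annotation and strand setting are not given in the sources used here. A deposited normalized table was not used. V2R levels are CPM, reads scaled to the library's total in genes. Genes with at least 10 reads over the 9 libraries were fitted with the quasi-likelihood test of edgeR 4.0.16 (R 4.3.3), TMM scaling and genotype as the only term, with Benjamini-Hochberg adjustment over 20213 genes and a threshold of 0.05. DESeq2 1.42.0 was an alternative, and its use without independent filtering was chosen after seeing the data. Each library is a separate mouse. Positions, overlaps and uniqueness come from RefSeq (GRCm38.p6, 117 of 118 members matched) and GENCODE M21. Named genes are family C, the 15 members with most reads, called members or the smallest p-value, members with 1 read, and marker list genes, and those named outside this rule are marked as chosen after their values were seen. Members and lists were chosen with earlier results of these data known.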

Additional observations from a re-analysis of the deposited data

How the results depend on the processing

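The count of 0 called members in each comparison became 1 (Vmn2r1) in homo against WT mice with DESeq2 without independent filtering and with only the 6 libraries compared, and 1 (Vmn2r1) for any difference with DESeq2, with or without independent filtering; the cause was not tested. With default settings DESeq2 gave no member an adjusted p-value in homo against WT or homo against het mice. Leaving out each library in turn gave 0 to 1 calls in homo against WT mice (1 without homo 1) and 0 in the other comparisons, and ratios of summed V2R level of 2.47 to 5.02 (homo to WT), 1.07 to 2.37 (het to WT) and 1.28 to 3.48 (homo to het). Without het 1, homo 2 and homo 3, log2 fold changes reversed to -0.27 for Vmn2r2, -0.17 for Vmn2r3, 0.032 for Vmn2r29, -0.13 for Vmn2r79, -0.18 for Vmn2r57 and -0.16 for Vmn2r77 in het against WT mice, to -0.14 for Vmn2r29 and -0.34 for Vmn2r57 in homo against WT mice, and to -0.17 for Vmn2r29 and -0.16 for Vmn2r57 in homo against het mice. With DESeq2, with or without independent filtering, Vmn2r57 reversed to -0.0012 in het against WT mice. None of these was called in any fit.

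Among fits that each left out 1 library, log2 fold changes that reversed ranged, in het against WT mice, from -0.27 to 1.05 for Vmn2r2, -0.17 to 0.60 for Vmn2r3, -0.80 to 0.11 for Vmn2r5, -2.65 to 5.42 for Vmn2r6, -0.13 to 0.031 for Vmn2r29, -0.20 to 0.45 for Vmn2r79, -0.18 to 0.17 for Vmn2r57, -0.16 to 0.27 for Vmn2r77 and -2.64 to 4.55 for Vmn2r81. In homo against WT mice they ranged from -1.28 to 0.46 for Vmn2r5, -0.059 to 0.24 for Vmn2r29, -0.046 to 0.30 for Vmn2r57 and -0.71 to 0.20 for Vmn2r77. In homo against het mice they ranged from -0.87 to 0.87 for Vmn2r5, -0.0036 to 0.30 for Vmn2r29, -0.0019 to 0.52 for Vmn2r79, -0.049 to 0.29 for Vmn2r57, -0.75 to 0.16 for Vmn2r77 and -0.14 to 3.94 for Vmn2r49.

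Replicate numbers did not pair the libraries, since deviations of same-numbered libraries correlated from -0.21 to 0.092. With the replicate number as a block, 0 members were called in every comparison, and the ratios of summed level were 3.04, 1.62 and 1.88. Members with few reads, near-identical sequence or overlapping exons are the least certain, and 3 mice per genotype, with a wide spread among het and homo mice, limit every comparison.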
